A study of Saccharomyces cerevisiae with 9 samples.

Results

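The loss of PIL1 alone was compared with the wild type in budding yeast, Saccharomyces cerevisiae, across all measured genes. Polyadenylated RNA had been sequenced from 3 biological replicates of each strain, and these 6 libraries were part of a series of 9, whose other libraries came from a triple mutant (seg1Δ nce102Δ pil1Δ). The wild type was BY4742, a MATα haploid laboratory strain with the alleles his3Δ1, leu2Δ0, lys2Δ0 and ura3Δ0, and the pil1Δ strain had the same background with PIL1 replaced by the kanMX4 cassette (pil1::kanMX4). Cultures of both strains were 24 h old, in synthetic complete medium kept at 28 °C. The labels do not say whether the deletion strain was a single clone. A gene was described where its mean over the 6 libraries reached 10 normalized reads, which gave 5894 of the 6215 genes in the table and left out 321.

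Pil1 is a curved protein that assembles with its close relative Lsp1 into eisosomes, the scaffolds that hold furrow-like domains of the plasma membrane in place. These furrows house the Sur7 family of membrane proteins, several amino acid permeases and the tetraspan protein Nce102, and they take part in sphingolipid sensing through the Slm proteins, TORC2 and the Ypk kinases. The plasma membrane also carries the enzymes that spin the wall polymers glucan and chitin. A kinase cascade ending in Slt2, the cell wall integrity pathway, turns on genes for wall proteins when the wall or membrane is strained.

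Depth was similar in all 6 libraries, with 22430652 to 27014469 reads on genes. Levels are given as normalized reads, which are a library's reads on a gene divided by a size factor for that library, and differences as log2(pil1Δ / wild type) of normalized reads plus 1, a scale that understates the change of low genes. The labels number the replicates 1 to 3 in each strain without saying what a number shares, and the libraries themselves were alike by number. Deviations from the strain means correlated across genes at 0.634, 0.832 and 0.581 for same-numbered wild type and pil1Δ libraries, against -0.669 to 0.164 for libraries of different numbers. Deviations within a strain sum to 0, so part of that gap is built in. Same-numbered triple mutant libraries correlated at 0.041 to 0.348 with the wild type and at 0.0548 to 0.428 with pil1Δ. The replicate number held a median of 78.4% of a gene's variance, with PIL1 left out, and the strain 6.49%. Same-numbered libraries were therefore set side by side as pairs throughout.

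PIL1 itself checked the strain labels. PIL1 (YGR086C, chromosome VII, 649598 to 650617, minus strand, R64) had 15878, 20364 and 21404 normalized reads in replicates 1 to 3 of the wild type, and 116, 111 and 116 in those of pil1Δ, so the strains lay far apart in every pair. The log2 difference was -7.37 (SE 0.12, adjusted p = 2.02e-06 by limma without pairing). The remaining signal came from 133, 149 and 118 reads. PIL1 and its relative LSP1 share 68.5% of their coding bases, with a longest identical run of 27 bases. LYS2 had 0 reads in all 6 libraries. The mating type markers did not all separate. Of the α-specific genes, MF(ALPHA)1, SAG1, STE3 and MF(ALPHA)2 had 14776, 2639, 1817 and 957 normalized reads per kilobase in wild type and 10307, 2312, 1601 and 846 in pil1Δ. MFA1, a gene of the opposite mating type, had 1102 and 1070, above MF(ALPHA)2. The other genes of that type that were checked had 137 to 900 in wild type, all below MF(ALPHA)2. In pil1Δ they had 136 to 893, the highest of them above MF(ALPHA)2.

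Apart from PIL1, the differences between the strains were small and most did not pass a test. In limma without pairing, the main test, 1 of 5894 genes was called at an adjusted p under 0.05 (0.017%), and that gene was PIL1. With the replicate number as a block, limma again called 1 gene (0.017%), while the genes at an unadjusted p under 0.05 went from 117 (1.99%) to 827 (14%). With single libraries left out the first count ran from 66 without pil1Δ replicate 1 to 177 without wild type replicate 1, and with pairs left out the second ran from 485 without number 2 to 909 without number 3. After PIL1 the lowest adjusted p in the paired limma fit was 0.0573, shared by the 7 genes CRH1, PIR3, PST1, KDX1, YEH1, THI4 and TIP1. DESeq2 on the recovered reads called 3 genes without pairing (0.0509%), which were PIL1, THI4 and DPA10, and 86 genes with pairing (1.46%), 33 higher (0.56%) and 53 lower (0.899%). edgeR called PIL1 alone with and without the block (0.017% each). Below, a gene is said to be called only by the paired DESeq2 fit unless another test is named, since with all 3 pairs limma and edgeR called none of the genes that follow. List counts below stand against the shares of all genes: 20.5% higher and 17.6% lower in all 3 pairs, 3.48% and 2.75% without overlap. The shares called by paired DESeq2 were 0.56% higher and 0.899% lower. The lists were chosen with earlier results of these data known.

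The 86 genes called by the paired DESeq2 fit differed by little. With PIL1 set aside, their log2 differences lay between -0.71 and 0.78. Each of the 86 moved in the same direction in all 3 pairs, as did 38.1% of all genes, and each was at an unadjusted p under 0.05 in the paired limma fit. The 2 strains did not overlap for 39 of them, against 6.23% of all genes. A paired test on these same libraries picked the 86, PIL1 among them. These counts of direction, p and overlap thus describe the calls and are no separate support for them. The calls depended on the pairs used: with number 1, 2 or 3 left out, 21, 18 and 47 genes were called, of which 14, 17 and 28 were among the 86. The paired limma fit called 1, 3 and 15 genes in the same settings, and the 15 called without number 3 included KDX1, PIR3, CIS3, TIP1, URA10, DLD1, BNA6 and NCA3.

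Genes known to be induced through the wall integrity kinase stood higher in pil1Δ. Their list was chosen with earlier results of these data known, so the counts describe it and are no test of it. Of 24 such genes measured, 20 were higher in all 3 pairs, as were 20.5% of all genes, and 0 were lower in all 3, as were 17.6%. At an unadjusted p under 0.05 in the paired limma fit 18 were higher and 0 lower, against 7.55% and 6.48% of all genes. In limma without pairing 9 were higher and 0 lower, against 1.09% and 0.899%. The median log2 difference of the list was 0.28, with 0.28, 0.23 and 0.33 in the 3 pairs, beside 0.01 for all genes. The strains did not overlap for 10 of the 24, all of them higher in pil1Δ, against 3.48% of all genes. Paired DESeq2 called 12 of the 24 higher, against 0.56% of all genes: CIS3, CRH1, CWP1, DFG5, FKS1, GSC2, KDX1, PIR3, PST1, PUN1, SED1 and SLT2. With number 1, 2 or 3 left out, 0, 6 and 6 genes of the list were called higher, whereas the list median stayed between 0.25 and 0.31 with any library or pair left out.

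Kinase genes of the group included KDX1 and SLT2. KDX1 (YKL161C), a kinase-like relative of Slt2, had 1500, 1746 and 1321 normalized reads in the wild type and 1982, 2486 and 2065 in pil1Δ, in the order of replicates 1 to 3 as in all sentences below, and every pil1Δ library lay above every wild type library. The log2 difference was 0.52 (SE 0.05 with pairing, adjusted p = 0.0573 by limma and 3.28e-06 by DESeq2, both paired). SLT2 (YHR030C), the mitogen-activated kinase at the end of the cascade, had 9123, 10942 and 9046 in wild type and 11169, 12824 and 11419 in pil1Δ. Its lowest pil1Δ library stood just above its highest wild type library, with a log2 difference of 0.29 (SE 0.05, adjusted p = 0.145 by paired limma and 0.00453 by paired DESeq2).

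PST1, PIR3 and CRH1 were higher in pil1Δ in each pair. PST1 (YDR055W), a wall protein anchored by a glycolipid, had 10687, 7625 and 10151 in wild type and 14481, 11487 and 13887 in pil1Δ, without overlap (log2 difference 0.49, SE 0.05). PIR3 (YKL163W), a glycoprotein tied to the glucan of the wall, had 6740, 5706 and 7301 in wild type and 10205, 8204 and 9654 in pil1Δ, again without overlap (0.51, SE 0.05). CRH1 (YGR189C), the transglycosylase that joins chitin to glucan, had 5298, 6263 and 5187 in wild type and 7155, 8100 and 7030 in pil1Δ (0.41, SE 0.04). These 3 genes had an adjusted p of 0.0573 each by paired limma and 1.87e-08, 1.99e-08 and 2.51e-06 by paired DESeq2.

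Further wall proteins followed. CWP1 (YKL096W), a mannoprotein anchored in the wall, had 460, 759 and 592 normalized reads in wild type and 691, 950 and 932 in pil1Δ, where the lowest pil1Δ library fell below the highest wild type library although pil1Δ was higher in each pair (log2 difference 0.52, SE 0.07). CIS3 (YJL158C), a relative of PIR3, had 532, 799 and 756 in wild type and 818, 1141 and 861 in pil1Δ. SED1 (YDR077W), the main surface protein of resting cells, had 131026, 125167 and 118833 in wild type and 161360, 145969 and 161343 in pil1Δ, without overlap. Some members differed little: SPI1, FIT1, YPS1 and PIR1 had log2 differences of -0.08, -0.07, 0.03 and 0.06 and were not called.

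**Figure D1:**
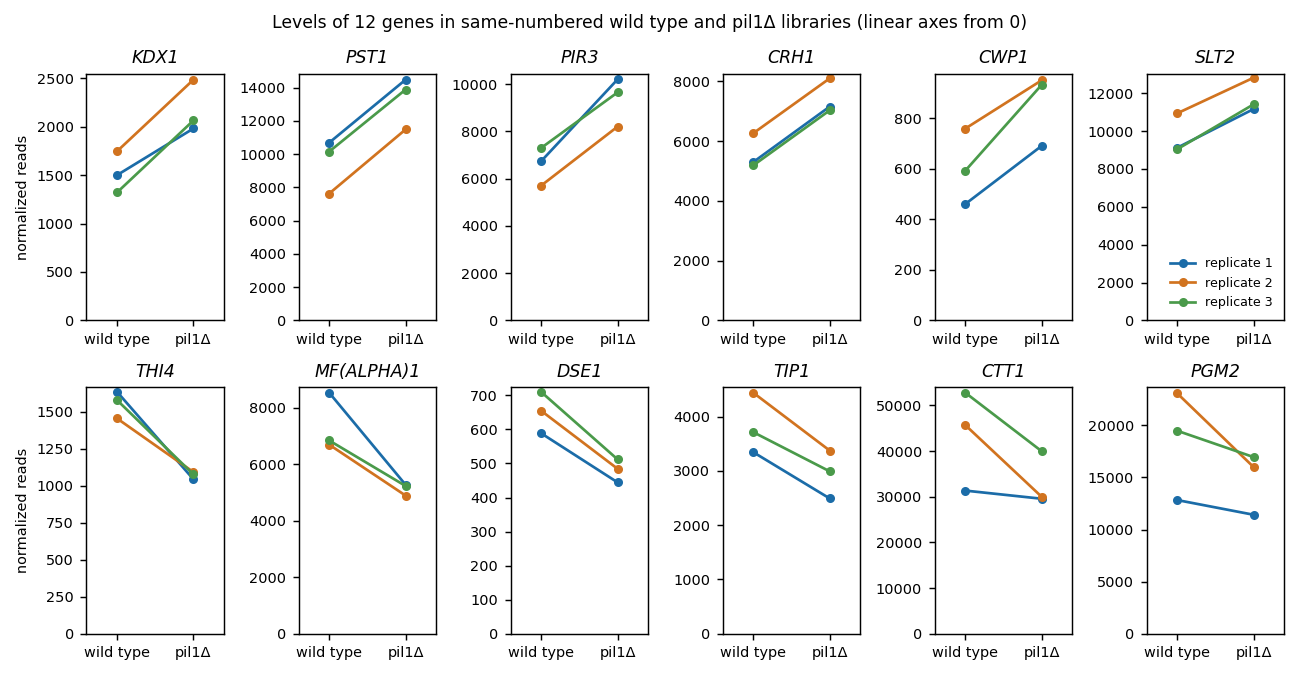
Normalized reads of 12 genes in wild type and pil1Δ, on linear axes from 0, with a line joining the libraries of the same replicate number. KDX1, PST1, PIR3, CRH1, CWP1 and SLT2 are higher in pil1Δ in each pair, and THI4, MF(ALPHA)1, DSE1, TIP1, CTT1 and PGM2 lower. CTT1 and PGM2 vary more between replicate numbers than between strains.

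Upstream sequence of the wall integrity targets was searched for the site of Rlm1, the transcription factor that Slt2 activates, which reads CTA, then a run of A or T, then TAG. The motif was chosen after the values had been seen. It was present on either strand within 500 bases before the start codon in 7 of the 24 genes (29.2%), against 103 of 5883 genes (1.75%). These shares describe the listed genes' sequence and not the libraries. The windows of 4 called wall protein genes are shown because they carry the site in genes that were called. The site is in capitals, and sequence and positions are from RefSeq R64, on the strand of the gene.
PST1, chrIV:563212-563241, plus strand: ttacgagtctCTAAAAATAGcgtaggcaca
PIR3, chrXI:144111-144140, plus strand: gattagcaaaCTAATTATAGatcaaaggcc
CWP1, chrXI:260736-260765, plus strand: tacgtcataaCTAAAAATAGcgttagccac
SED1, chrIV:600303-600332, plus strand: gcatatatcgCTAAAATTAGccatcagaac

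The sites began 296, 271, 377 and 471 bases before the start codons of PST1, PIR3, CWP1 and SED1. The median log2 difference was 0.32 over the 7 targets with a match and 0.26 over the targets without one, so the listed genes without this string stood higher too. RLM1 itself had 5450, 5174 and 4926 normalized reads in wild type and 5897, 5543 and 5631 in pil1Δ (log2 difference 0.14, not called).

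The cascade above these targets differed little. Of 22 measured sensors, exchange factors, kinases and regulators, 7 were higher and 4 lower in all 3 pairs, the median log2 difference was 0.02 (-0.04 without wild type replicate 1 and 0.09 without wild type replicate 2), and SLT2 was the gene called. MID2, a surface sensor whose gene overlaps JIP3 so that its reads are uncertain, had a log2 difference of 0.22, and MSG5, a phosphatase that acts on Slt2, one of 0.14, and neither was called.

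Genes for the synthesis of wall polymers were higher as well. Of 35 genes for glucan and chitin synthesis and remodelling, 18 were higher and 1 lower in all 3 pairs. The shares of all genes were 20.5% and 17.6%. Called higher were 6, against 0.56% of all genes: CHS1, CRH1, FKS1, GFA1, GSC2 and KRE6. The median log2 difference was 0.12, and it was 0.07 without wild type replicate 3 or without number 3. CRH1, FKS1 and GSC2 also belong to the list of wall integrity targets. FKS1 (YLR342W), a catalytic subunit of glucan synthase, had 23151, 18467 and 22620 normalized reads in wild type and 30881, 22643 and 27962 in pil1Δ, higher in each pair although the strains overlapped (log2 difference 0.34, SE 0.05, adjusted p = 0.0003 by paired DESeq2). Its alternative subunit GSC2 (YGR032W) had 14662, 12226 and 15494 in wild type and 18323, 14277 and 18243 in pil1Δ (0.26, SE 0.05).

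CHS1, GFA1 and KRE6 were the other genes of the list that were called. CHS1 (YNL192W), the chitin synthase that repairs the wall after cell separation, had 9882, 9873 and 10398 in wild type and 12723, 11398 and 14074 in pil1Δ, without overlap (log2 difference 0.34, SE 0.06). GFA1 (YKL104C), the first enzyme of the chitin precursor route, had 4174, 5062 and 3893 in wild type and 4782, 5964 and 5023 in pil1Δ (0.27, SE 0.05). KRE6 (YPR159W), needed for the branched glucan of the wall, had 6886, 6398 and 6825 in wild type and 8655, 8206 and 7885 in pil1Δ, without overlap (0.30, SE 0.05). PSA1, KTR2 and GPI18 are in no list and are named because they were called. PSA1 (YDL055C), the enzyme that makes GDP-mannose for mannoproteins, had 4800, 3182 and 4431 in wild type and 6276, 5041 and 5830 in pil1Δ (0.48, SE 0.06, adjusted p = 0.111 by paired limma and 9.79e-06 by paired DESeq2). PSA1 stood above the wild type range in all 3 pil1Δ libraries. KTR2, a mannosyltransferase, and GPI18, an enzyme that builds the glycolipid anchor of wall proteins, were also called higher, at log2 differences of 0.28 and 0.36.

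A list of wall mannoproteins did not differ as a group. CWP1 and SED1 are in this list and also among the wall integrity targets. Of 19 genes of the Cwp, Tip, Tir and Dan families measured, 7 were higher and 6 lower in all 3 pairs, with a median of -0.02, or 0.01 with scaling by total reads, and from -0.09 to 0.04 with libraries or pairs left out. CWP1, CWP2 and SED1 were called higher, whereas TIP1 (YBR067C), a mannoprotein induced by cold, was called lower. TIP1 had 3344, 4439 and 3713 normalized reads in wild type and 2492, 3374 and 2991 in pil1Δ, lower in each pair (log2 difference -0.38, SE 0.04, adjusted p = 0.0573 by paired limma and 0.000241 by paired DESeq2).

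Genes for the separation of daughter from mother cells were lower in pil1Δ. After division the daughter cell expresses enzymes that digest the septum from its own side. Of 16 such genes, 10 were lower and 1 higher in all 3 pairs, 5 were lower without overlap against 2.75% of all genes, and the median log2 difference was -0.19, with -0.22, -0.12 and -0.13 in pairs 1 to 3. That median was -0.12 without wild type replicate 2, -0.11 without pil1Δ replicate 1 or without number 1, and -0.25 without pil1Δ replicate 2. DSE1 (YER124C), a daughter-specific protein, had 589, 655 and 710 in wild type and 444, 484 and 512 in pil1Δ, without overlap (log2 difference -0.44, SE 0.05). CTS1 (YLR286C), the chitinase of the septum, had 2862, 3371 and 3820 in wild type and 2416, 2615 and 2908 in pil1Δ (-0.33, SE 0.04). EGT2 (YNL327W), a wall protein of the same program, had 949, 812 and 1169 in wild type and 789, 640 and 825 in pil1Δ (-0.37, SE 0.06).

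These 3 genes were the ones called, with adjusted p of 0.00971, 0.00379 and 0.0276 by paired DESeq2, and 0 of them were called with any number left out. SCW11, DSE2 and DSE4, which encode wall glucanase-like proteins, were lower without overlap at -0.43, -0.30 and -0.26 but were not called. ASH1, a daughter-specific repressor, went the other way, with 1235, 1133 and 1196 in wild type and 1411, 1353 and 1363 in pil1Δ (0.21, not called).

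The genes of the α mating type were slightly lower. Of 5 α-specific genes 4 were lower in all 3 pairs, against 17.6% of all genes, and 3 without overlap, against 2.75%. Their median log2 difference was -0.18, and MF(ALPHA)1 (YPL187W), the main gene of the secreted pheromone, was called. It had 8536, 6695 and 6843 normalized reads in wild type and 5275, 4892 and 5232 in pil1Δ, without overlap (log2 difference -0.51, SE 0.07, adjusted p = 0.111 by paired limma and 1.51e-06 by paired DESeq2). SAG1, the α agglutinin, and STE3, the receptor for the opposite pheromone, were at -0.19 and -0.18 and were not called. Of 33 haploid and pheromone response genes, 15 were lower and 4 higher in all 3 pairs. At an unadjusted p under 0.05 in paired limma 10 were lower and 4 higher, and 0 were called by any of the 3 tools, with a median of -0.07 that was -0.03 with scaling by total reads. AGA1, an agglutinin subunit, had 6302, 6328 and 6470 in wild type and 5368, 5176 and 5923 in pil1Δ (-0.22, not called).

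Stress and carbon storage genes were lower in most comparisons, with a size that depended on the pair. Yeast at the end of growth expresses a broad set of protective genes through the Msn2 and Msn4 factors, and stores trehalose and glycogen. Of 43 general stress genes, 26 were lower and 1 higher in all 3 pairs, against 17.6% and 20.5% of all genes. Called lower were 10, against 0.899% of all genes: CTT1, GND2, GPH1, HSP12, HSP26, PAI3, PGM2, SIP18, TFS1 and TKL2. At an unadjusted p under 0.05, 25 were lower and 0 higher in limma with pairing, against 6.48% and 7.55% of all genes. Without pairing 0 were lower and 0 higher. The list median was -0.19, with -0.04, -0.32 and -0.21 in pairs 1 to 3. For 0 of the 43 genes were the strains free of overlap, and 39 of them depended on the replicate number at an adjusted p under 0.05 in limma's F test, as did 2558 of all genes (43.4%). The last count was 638 without number 2 and 1241 without number 1. With number 1, 2 or 3 left out, 10, 2 and 2 genes of the list were called lower, and the median ran from -0.34 without wild type replicate 1 to -0.08 without wild type replicate 3, with -0.12 and -0.29 without pil1Δ replicates 1 and 3.

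CTT1 (YGR088W), the cytosolic catalase, had 31355, 45697 and 52791 in wild type and 29570, 29983 and 39964 in pil1Δ. The difference was small in pair 1 and larger in the other pairs (log2 difference -0.36, SE 0.10, adjusted p = 0.247 by paired limma and 0.0185 by paired DESeq2). CTT1 also lies close to PIL1, beyond PDC6. HSP12 (YFL014W), a small membrane-protecting stress protein, had 77125, 58205 and 99338 in wild type and 66769, 46633 and 81366 in pil1Δ. HSP12 thus differed more between replicate numbers than between strains, yet was lower in each pair (-0.27, SE 0.06). TKL2 (YBR117C), a transketolase of the pentose phosphate pathway, had 27026, 34743 and 41426 in wild type and 24142, 24066 and 30230 in pil1Δ (-0.38, SE 0.08). PAI3, an inhibitor of a vacuolar protease, was at -0.39 and TFS1, an inhibitor of another, at -0.31.

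The stress response element AGGGG, read by Msn2 and Msn4, was present on either strand within 500 bases upstream in 40 of the 43 stress genes (93%), against 34.1% of 5883 genes. Both shares are a property of the sequence and not of the libraries. Over all genes with a match the median log2 difference was -0.018, beside 0.005 for all genes. Within the stress list it was -0.20 over the 40 genes with the element and -0.00 over the 3 without. A window before CTT1, with the motif in capitals and sequence from RefSeq R64, is shown because CTT1 was called and lies near PIL1.
CTT1, chrVII:654258-654287, plus strand: gggatcaccggtaAGGGGccaagcggtgaa

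Glycogen breakdown genes were among the calls, in a list that shares GPH1, PGM2, TPS1, TPS2, TSL1, GSY2 and GLC3 with the general stress genes. Of 21 trehalose and glycogen genes 8 were lower and 0 higher in all 3 pairs, and GDB1, GIP2, GPH1 and PGM2 were called lower. The median was -0.15, with 0.00, -0.32 and -0.15 in pairs 1 to 3, and it was 0.01 without wild type replicate 2, -0.39 without wild type replicate 1, -0.03 and -0.29 without pil1Δ replicates 1 and 2, and -0.06 without number 2. GPH1 (YPR160W), glycogen phosphorylase, had 16316, 26344 and 22999 in wild type and 13405, 17221 and 20325 in pil1Δ (log2 difference -0.36, SE 0.09). GDB1 (YPR184W), the glycogen debranching enzyme, had 12076, 18819 and 15851 in wild type and 10253, 13302 and 13559 in pil1Δ (-0.32, SE 0.07). In both genes the widest gap between the strains was in pair 2, where the wild type library was high.

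Glycolytic genes were lower in all 3 pairs by more similar amounts. Of 21 genes of glycolysis and ethanol formation 19 were lower and 1, the hexokinase gene HXK2, higher in all 3 pairs. ENO2, FBA1, GPM1, PDC1, PGK1, TDH1 and TDH3 were called lower, against 0.899% of all genes. At an unadjusted p under 0.05, 13 were lower and 1 higher in limma with pairing, against 6.48% and 7.55% of all genes. Without pairing 0 were lower and 0 higher. The list median was -0.24, with -0.15, -0.23 and -0.26 in pairs 1 to 3, and it ran from -0.33 without wild type replicate 2 to -0.10 without pil1Δ replicate 2, with -0.13 without wild type replicate 3. With number 1, 2 or 3 left out, 5, 1 and 2 genes of the list were called lower.

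PDC1 (YLR044C), the main pyruvate decarboxylase, had 646715, 504008 and 503327 normalized reads in wild type and 501053, 435839 and 411307 in pil1Δ, without overlap (log2 difference -0.29, SE 0.07). FBA1 (YKL060C), aldolase, had 126543, 94059 and 142770 in wild type and 112608, 77604 and 110866 in pil1Δ (-0.27, SE 0.06). FBA1 overlapped between the strains and was lower in each pair. TDH1 (YJL052W), an isoform of glyceraldehyde phosphate dehydrogenase, had 34604, 24704 and 38078 in wild type and 28893, 17539 and 28951 in pil1Δ (-0.38, SE 0.06, adjusted p = 0.145 by paired limma and 0.000145 by paired DESeq2). TDH1 is over 90% identical to TDH2, and ENO2 to ENO1, so reads may be shared between these copies. PDC5, a further decarboxylase isoform, had 123659, 80861 and 85867 in wild type and 77693, 73267 and 50504 in pil1Δ (-0.53, SE 0.13), was lower without overlap and was not called. HXK2 had a log2 difference of 0.11.

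**Figure D2:**
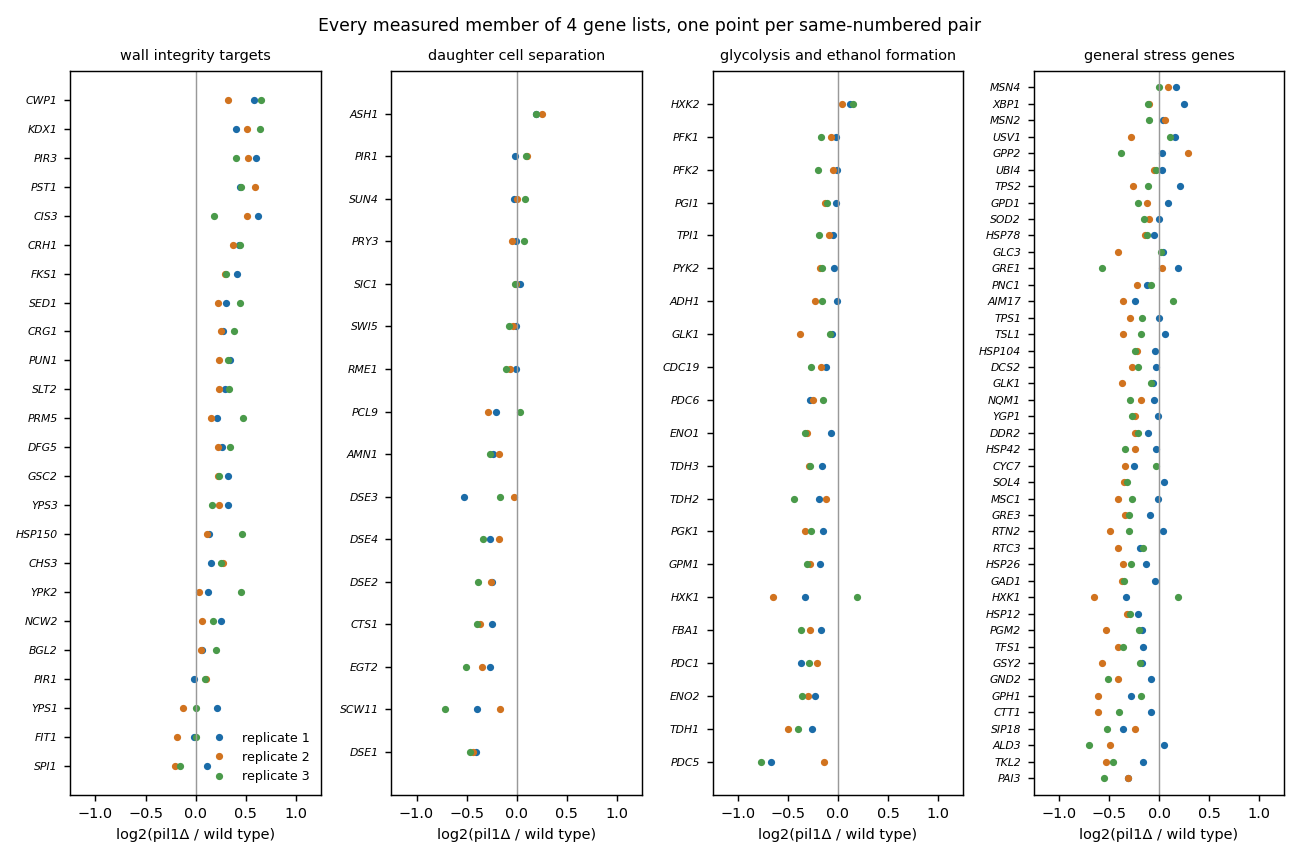
Log2(pil1Δ / wild type) of every measured gene in 4 lists, with a point for each same-numbered pair and genes ordered by their mean. Points of the wall integrity targets lie mostly right of 0 in all 3 pairs. In the general stress list the points of replicate 1 lie near 0 and those of replicates 2 and 3 mostly to the left.

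Thiamine genes were lower where they were called. Of 24 genes for thiamine and vitamin B6, 9 were lower and 1 higher in all 3 pairs, with a median of -0.08 (-0.14 without wild type replicate 2 and -0.12 without wild type replicate 3 or without number 2), and THI4, THI7 and PHO3 were called lower. THI4 (YGR144W), which makes the thiazole ring of thiamine, had 1636, 1456 and 1580 in wild type and 1044, 1093 and 1077 in pil1Δ. Every pil1Δ library lay well below every wild type library (log2 difference -0.54, SE 0.06, adjusted p = 0.0573 by paired limma and 7.4e-06 by paired DESeq2), and THI4 was also called by DESeq2 without pairing. PHO3 (YBR092C), a phosphatase that frees thiamine outside the cell, had 1482, 939 and 1115 in wild type and 878, 827 and 685 in pil1Δ, without overlap (-0.55, SE 0.12). THI7 (YLR237W), the thiamine transporter, had 14919, 9145 and 11684 in wild type and 10861, 8163 and 7911 in pil1Δ (-0.39, SE 0.08). THI7 overlapped between the strains, with the smallest gap in pair 2.

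INO1, OLE1 and FAS2, single genes of membrane lipid synthesis, were called higher and are named for their calls, not from a list. INO1 (YJL153C), which makes the inositol of phospholipids and sphingolipids, had 3365, 4572 and 5901 in wild type and 5927, 6292 and 7174 in pil1Δ, with the lowest pil1Δ library just above the highest wild type library (log2 difference 0.52, SE 0.10, adjusted p = 0.000241 by paired DESeq2). OLE1 (YGL055W), the fatty acid desaturase, had 7012, 4603 and 5360 in wild type and 8200, 5583 and 7583 in pil1Δ (0.33, SE 0.06). FAS2 (YPL231W), a subunit of fatty acid synthase, had 33669, 29226 and 26284 in wild type and 39814, 34514 and 35728 in pil1Δ, without overlap (0.31, SE 0.06). Its partner FAS1 was also called higher, at 0.24.

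YEH1 and ELO3 were called higher too. YEH1 (YLL012W), a steryl ester hydrolase, had 1030, 889 and 823 in wild type and 1333, 1193 and 1129 in pil1Δ, without overlap (0.42, SE 0.04, adjusted p = 0.0573 by paired limma and 0.00152 by paired DESeq2). ELO3 (YLR372W), the elongase that makes the very long fatty acids of sphingolipids, had 1052, 934 and 855 in wild type and 1273, 1346 and 1056 in pil1Δ (0.37, SE 0.06). ELO3 was the gene called among 31 sphingolipid genes, of which 5 were higher and 1 lower in all 3 pairs (median 0.02, from 0.00 to 0.09 with libraries or pairs left out). These were 16.1% and 3.23% of the list, against 20.5% and 17.6% of all genes. Of 26 ergosterol genes 14 were higher and 2 lower in all 3 pairs, 5 were higher at an unadjusted p under 0.05 in paired limma, and 0 were called by any of the 3 tools (median 0.04).

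Eisosome genes other than PIL1 were close to the wild type. Of 15 scaffold and signalling members besides PIL1, 8 were lower and 1 higher in all 3 pairs, 3 were lower at an unadjusted p under 0.05 in paired limma, 0 were called by any of the 3 tools and the median log2 difference was -0.05, or 0.00 without wild type replicate 2. Their log2 differences ran from -0.21 for EIS1 to 0.20 for YPK2, a kinase gene that is also among the wall integrity targets. LSP1 (YPL004C), the other core scaffold protein, had 23342, 32777 and 33106 in wild type and 23183, 27185 and 29507 in pil1Δ. The paired interval of its log2 difference ran from -0.31 to 0.01, around -0.15. SEG1, which marks where eisosomes form, had 6130, 7179 and 6577 in wild type and 6114, 6855 and 6251 in pil1Δ, with an interval from -0.15 to 0.05. EIS1 had 4467, 9028 and 6191 in wild type and 4118, 7027 and 5628 in pil1Δ, a gene whose spread over replicate numbers was wider than the gap between the strains.

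The membrane proteins of the furrow were more mixed. Of 14 genes, 3 were higher and 1 lower in all 3 pairs, with a median of 0.03 that ran from -0.08 without wild type replicate 2 to 0.12 without pil1Δ replicate 2. The 3 and 1 genes were 21.4% and 7.14% of the list, against 20.5% and 17.6% of all genes. PUN1 (YLR414C), a Sur7 family protein, had 2288, 2092 and 2742 in wild type and 2891, 2464 and 3434 in pil1Δ, and was called higher (0.30, SE 0.04, adjusted p = 0.111 by paired limma and 0.0117 by paired DESeq2). FLC2 (YAL053W), a membrane protein linked to FAD and calcium transport, had 10244, 7528 and 9370 in wild type and 12027, 9098 and 11602 in pil1Δ, and was called higher too (0.27, SE 0.04). Both were higher in each pair, with overlap between the strains. FMP45, another Sur7 family member, was lower in each pair without a call, with 5015, 10048 and 8000 in wild type and 4841, 6963 and 6558 in pil1Δ (-0.29). NCE102 had 99205, 83910 and 106366 in wild type and 100207, 76222 and 95956 in pil1Δ, and the arginine permease gene CAN1 was at 0.02. Of 16 TORC2 signalling genes 0 were called by any of the 3 tools and 0 had an unadjusted p under 0.05 in paired limma, and their median was -0.02, or 0.01 with scaling by total reads.

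The genes beside PIL1 on chromosome VII were not called, apart from CTT1. To the left lay RPL11B, at a log2 difference of 0.20, and MRP13, at -0.14. To the right PDC6, a little-used decarboxylase isoform, was at -0.23, with 632, 414 and 585 normalized reads in wild type and 520, 349 and 528 in pil1Δ. RPL11B has a near copy in RPL11A.

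Cytosolic ribosomal protein genes were mostly higher in pil1Δ without a call, with the highest pair median in pair 2. Of 139 cytosolic ribosomal protein genes 110 were higher and 1 lower in all 3 pairs, against 20.5% and 17.6% of all genes. Without overlap 26 were higher, against 3.48%. At an unadjusted p under 0.05, 90 were higher in paired limma, against 7.55% of all genes. Without pairing 7 were, against 1.09%. 0 were called by any of the 3 tools. The median log2 difference was 0.16, with pair medians of 0.07, 0.30 and 0.11. The median was 0.03 without wild type replicate 2, 0.24 without wild type replicate 1 and 0.09 without number 2. Wild type replicate 2 was the library in which these genes were lowest. RPS28A, a small subunit protein, had 2480, 2260 and 2785 in wild type and 2748, 2984 and 3333 in pil1Δ (0.27, not called). Of 80 ribosome biogenesis genes 33 were higher and 1 lower in all 3 pairs. At an unadjusted p under 0.05, 19 were higher in limma with pairing and 0 without, and 0 were called by any of the 3 tools. Their median was 0.12, with 0.08, 0.37 and -0.04 in the pairs, and ran from -0.12 without wild type replicate 2 to 0.32 without wild type replicate 1. The replicate number mattered for 78 of these 80 genes in the F test, as NSR1, a nucleolar protein, shows with 20647, 4124 and 21553 in wild type and 19014, 6341 and 15647 in pil1Δ.

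**Figure D3:**
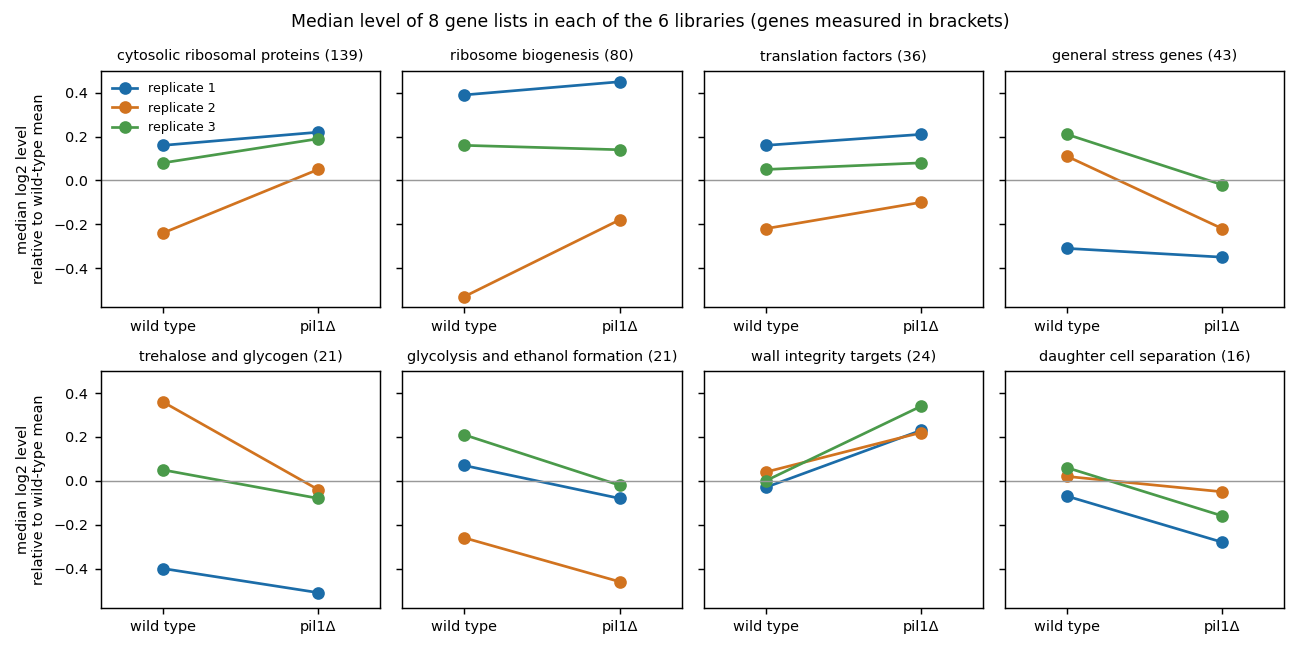
Median level of 8 gene lists in each of the 6 libraries, as log2 relative to the wild-type mean of each gene, with lines joining libraries of the same replicate number. Ribosome biogenesis spans more between replicate numbers than between strains, whereas for the wall integrity targets the 3 wild type libraries lie together near 0 and the 3 pil1Δ libraries above 0.2.

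Single genes outside these groups were also called, and those below are a part of them. Among those lower, DPA10 (YLR307C-A), for which no role is given here, had 735, 630 and 890 in wild type and 438, 507 and 422 in pil1Δ (log2 difference -0.71, SE 0.14), and was also called by DESeq2 without pairing. DLD1 (YDL174C), a mitochondrial D-lactate dehydrogenase, had 5318, 5132 and 4519 in wild type and 3874, 3867 and 3760 in pil1Δ, without overlap (-0.38, SE 0.05). URA10 (YMR271C), the minor isoform of an enzyme of uracil synthesis, had 6426, 5890 and 5774 in wild type and 4496, 4269 and 4917 in pil1Δ (-0.40, SE 0.06). DAK2 and GCY1, both enzymes of glycerol breakdown, were at -0.48 and -0.34, and BNA1 and BNA6, both of NAD synthesis from tryptophan, at -0.30 and -0.35.

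Sulfur genes and low-level genes accounted for others. The sulfate permease gene SUL2 and the sulfite reductase gene MET5 were called lower at -0.29 and -0.26, in a list of 32 sulfur and methionine genes of which 14 were lower and 0 higher in all 3 pairs (median -0.09, and 0.01 without wild type replicate 1). COS12 had the largest log2 difference upward, 0.78 (SE 0.18), from 95, 72.9 and 179 normalized reads in wild type to 148, 184 and 235 in pil1Δ, with overlap. Of lists with 0 calls, 34 genes of the proteasome had a median of -0.01 (0.02 with scaling by total reads), 67 of mitochondrial ribosomes -0.03 (0.01), 44 of the respiratory chain and ATP synthase -0.04, 44 of actin patches and endocytosis -0.04 and 32 amino acid permeases 0.02. With libraries or pairs left out these 5 medians lay between -0.10 and 0.12. At an unadjusted p under 0.05 in paired limma these lists held 0, 2, 8, 4 and 4 genes in either direction.

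**Figure D4:**
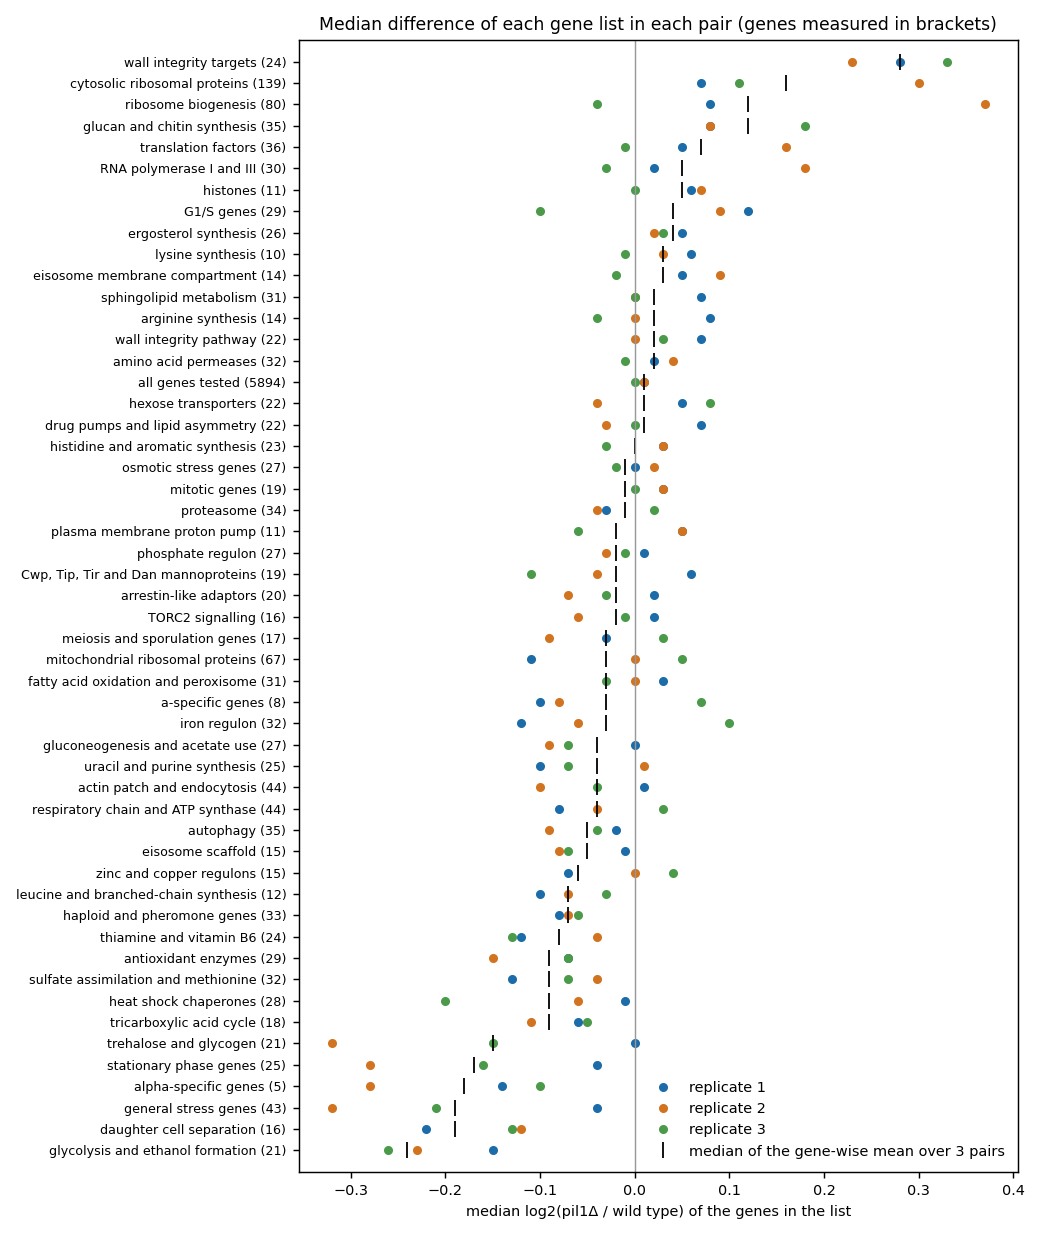
Median log2(pil1Δ / wild type) of each gene list but the mitochondrially encoded genes. A point stands for each same-numbered pair and a bar for the median of the gene-wise mean over the pairs. The list left out, with 4 genes measured, had medians of -0.23, -0.15 and 0.37 in pairs 1 to 3. By the bar the wall integrity targets lie highest, at 0.28, and glycolysis lowest, at -0.24. Single pairs go further in other lists shown, to 0.37 for ribosome biogenesis and to -0.32 for the general stress and the trehalose and glycogen genes, all in pair 2.

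The 3 pair differences, which share no library, resembled each other weakly. Across 5893 genes without PIL1 they correlated at 0.21 for pairs 1 and 2, 0.03 for pairs 1 and 3 and 0.13 for pairs 2 and 3, values that describe genes and not replicates. Genes that differed by over 0.3 on the log2 scale, in the same direction, in each of 2 pairs were then read in the pair left out, among 5655 genes with a mean of at least 50. Read in pair 1, 16 of 21 higher genes and 33 of 37 lower genes had the same direction, against 53.7% and 46.3% of all 5655 genes there. In pair 2 it was 21 of 23 and 23 of 25, against 52% and 48%. In pair 3 it was 20 of 28 and 20 of 38, while 49.8% and 50.2% of those 5655 genes lay in each direction there. These counts, too, are of genes and not of replicates.

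The libraries limited how small a difference could be seen. The median SE of a log2 difference was 0.107 without pairing and 0.0519 with it. The interval of the difference lay within 1.5-fold either way for 4882 genes (82.8%) without pairing and for 5605 genes (95.1%) with it. In single pairs 98.4% to 98.7% of genes lay within 1.5-fold. For 3 libraries against 3, a two-sided p under 0.1 is out of reach of an exact permutation test of 1 gene. For 3 pairs with signs flipped, a p under 0.25 is out of reach. The adjusted p above come from model fits that share spread across genes.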

How the data were processed

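Per the labels' protocols, cells were washed with azide and fluoride and broken by glass beads, and poly(A) RNA was selected after column purification and DNase. GSNAP, DESeq2, DESeq and the build R64 are named, without roles, in the submitters' processing notes. No counting tool or strand setting is given in the sources used here. Reads of a gene and of one that overlaps it or lies antisense to it thus cannot be told apart. The deposited signal is a read count divided by a size factor for each library: 100% of values in each column were whole multiples of 1 unit (tolerance 1e-06), which gave back whole reads. A second deposited table of log2 values, transformed in a way not given in the sources used here, served as an alternative.

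Because the deposited values were normalized, the main test was limma 3.58.1 (lmFit, eBayes with trend and robust; R 4.3.3) on log2(value + 1), on the 6 libraries by strain, two-sided, with Benjamini-Hochberg adjustment over 5894 genes. The replicate number was a block in the paired fits; same-numbered deviations correlated above 0.1 in all 3 pairs, and the pairing comes from that check and not from the labels. A shared culture, day or preparation is therefore not known. edgeR 4.0.16 and DESeq2 1.42.0 used the recovered reads. Simulated data were run through limma with and without the block, and through edgeR and DESeq2 with the block. The other fits were not run on simulated data, and the outcome is not reported here. Replicates are called biological by the labels.

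Genes and the 52 gene lists were chosen with earlier results of these data known. A single gene was left out of the lists and is not reported here. Genes named in the text were drawn from PIL1 and its neighbours, and the eisosome genes. Other sources were the 12 largest differences each way without overlap at a mean of at least 50. Further ones were the 10 smallest p of each limma fit and up to 4 genes a list with the smallest paired p. Genes called by a count test were a source too, but the text does not name all of them. ASH1, DSE2, SCW11, HXK2, SPI1, FIT1, YPS1, PIR1, NSR1, LYS2 and MFA1 were chosen after their values were seen. In the R64 reference 6212 gene identifiers were found and 3 were not. A near copy means at least 90% identity over at least 50% of the length.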

Additional observations from a re-analysis of the deposited data

How the results depend on the processing

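PIL1 was the single gene called in every limma and edgeR fit of all 6 or 9 libraries, with TMM or total-read scaling, a pseudocount of 5, a minimum mean of 50, no filter, the transformed table, or a GC and length trend removed, each with and without the replicate block where both were run; DESeq2 called 3 genes, and 86 with the block. With libraries or pairs left out, limma called 1 to 15 genes, and DESeq2 with the block 21, 18 and 47 without number 1, 2 and 3; the cause was not tested. DESeq2 gave no adjusted p for PIL1 without number 1. The log2 difference of PIL1 ran from -7.51 to -6.69.

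The 117 genes at an unadjusted p under 0.05 became 60 with all 9 libraries and 179 with these and the replicate block. With the block and 6 libraries they were 827, and 824 with TMM, 996 with total-read scaling, 829 with the transformed table, 841 with no filter, 807 at a minimum mean of 50, 830 at a pseudocount of 5, 828 by edgeR, 445 by DESeq2 and 852 with the GC and length trend removed. Leaving out single libraries without the block gave 66 to 177. Leaving out number 1, 2 or 3 with the block gave 632, 485 and 909 by limma and 205, 164 and 369 by DESeq2. The 2558 genes that depended on the replicate number became 176 with all 9 libraries, and 1241, 638 and 2410 without number 1, 2 and 3.

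Of 2752 results for 89 named genes under the alternatives, 2607 kept direction and call, 121 gained a call, 60 of them in the paired DESeq2 fit, and 24 changed sign without a call (CAN1, EIS1, FIT1, HXK2, NCE102, NSR1, PIR1, RPL11B, SEG1, SPI1 and YPS1). Of 728 list medians under alternatives 112 moved by more than the spread between pairs, and 34 of 52 lists changed sign in some setting. Scaling by total reads moved the median of all genes to 0.038. The block combined with another scaling, filter, pseudocount or table, the DESeq2 fits with pairs left out and total-read scaling of lists were added after seeing the data. Counting error was small beside the spread between libraries, with a chi-square per degree of freedom of at least 28.33 between any 2 of the 6.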

Other observations

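Several genes called higher by the paired DESeq2 fit lie close together on chromosome XI (R64). YKL102C (248062 to 248367, minus strand), listed without a symbol, had 199, 193 and 115 normalized reads in the wild type and 252, 295 and 216 in pil1Δ, without overlap (log2 difference 0.61, SE 0.12). Its neighbour HSL1 (248920 to 253476, plus strand), a kinase of the morphogenesis checkpoint, had 2333, 2728 and 1977 in wild type and 2704, 3530 and 2640 in pil1Δ (0.33, SE 0.05). GFA1 (243220 to 245373, minus strand) lies further off on the other side of YKL102C and was at 0.27. Between GFA1 and YKL102C lies APE1, a gene among the 86 called, whose direction and difference are not given here. CWP2 (259253 to 259531) and CWP1 (261132 to 261851) are next to each other on the plus strand and were at 0.28 and 0.52. Since the strand setting is not given, reads that run from 1 gene into the next cannot be told apart, and the part of position in these values was not tested.

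The genes of the carbonic anhydrase NCE103 and the peroxidase TSA2 were also called lower. NCE103 had 14981, 28248 and 22121 in wild type and 11529, 19094 and 18275 in pil1Δ, so replicate 2 was highest in both strains (log2 difference -0.41, SE 0.07). TSA2 had 1431, 1465 and 2212 in wild type and 1254, 1065 and 1410 in pil1Δ, without overlap (-0.43, SE 0.09). Of 29 antioxidant genes 16 were lower and 1 higher in all 3 pairs, with a median of -0.09 (-0.14 without wild type replicate 1 and -0.04 without wild type replicate 3) and CTT1 and TSA2 called.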
